A study of Mus musculus with 10 samples.

Results

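The genes described here are the core of the machinery that carries a cell from G1 into S phase. They are the D-type cyclins Ccnd1, Ccnd2 and Ccnd3, the E-type cyclins Ccne1 and Ccne2, the kinases Cdk4, Cdk6 and Cdk2, the inhibitor Cdkn1b and the pocket protein Rb1. They were chosen by name and function, with earlier results of these data known, and all 10 were among the 15899 genes measured. An anti-FLAG antibody had been used to pull RNA down from lysates of neurospheres, floating colonies grown with EGF and FGF from neural stem cells (NSCs) of the brain subependymal zone of 10-week-old mice. In the FLAG cultures both alleles of Mex3a carried a FLAG tag at the endogenous locus (Mex3aFLAG/FLAG), so MEX3A was tagged in every cell that makes it, while the WT cultures (Mex3a+/+), from the same background, carried no tag and gave the RNA that antibody and beads retain without it. Formaldehyde crosslinking preceded the pulldown in 4 libraries, 2 of each genotype, and the other 6, with 3 of each genotype, were native, that is, not crosslinked. The cultures are described as biological replicates, but which mouse gave which culture is not given in the sources used here.

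In textbook accounts, mitogens such as EGF raise D-type cyclins, which bind CDK4 and CDK6, and these kinases start the phosphorylation of RB, the protein that holds E2F transcription factors in check. Released E2F raises E-type cyclins, and cyclin E with CDK2 completes the phosphorylation of RB and opens S phase. CDKN1B, also called p27, binds cyclin E-CDK2 and holds it inactive, and its level in neural progenitors is known to bear on whether they keep dividing or leave the cycle. MEX3A is an RNA-binding protein of the MEX-3 family, whose KH domains bind single-stranded RNA, often in 3' untranslated regions (3' UTRs). The comparison of FLAG with WT asks which of these mRNAs were recovered in excess with tagged MEX3A. Input RNA was not analysed here, so a value of FLAG over WT holds both the RNA kept by MEX3A and whatever the cultures differed in at the RNA level. In such bulk libraries fewer cells of a type and less RNA per cell cannot be told apart.

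Each value is a normalized log2 level as the authors deposited it, and a step of 1 is a doubling. A gene was called at an adjusted p under 0.05 and a log2 fold change beyond 0.58, the thresholds of the study, in limma fits over all genes with Benjamini-Hochberg adjustment. Depth per library is unknown, but ties at the lowest value, which grow as reads become few, set FLAG native replicate 1 (329 genes tied) and FLAG native replicate 3 (178) apart from the other libraries (at most 3). FLAG native replicate 2 stood apart from both in the members themselves. The median over the 10 genes of its value minus the WT native mean was 0.11, against 1.20 and 0.60 in FLAG native replicates 1 and 3. Mex3a RNA itself was at 3.92 to 6.10 in the FLAG libraries and 2.75 to 3.52 in the WT libraries, with FLAG native replicate 2 at 4.03. Every FLAG library therefore lay above every WT library for this gene.

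The MEX-3 recognition element (MRE), the motif the study searched, joins a pair of 4-base parts with 0 to 8 bases between them, and is counted here in the form of the study's methods, whose last bases are TA. The search ran on the transcribed strand of every gene's longest 3' UTR (GRCm38, GENCODE M21). At least 1 match was found in 8 of the 10 genes, and 79.0% of the 12221 3' UTRs of coding genes of the matrix held one, so the share among the members is near that of all genes. The match with the shortest spacer, or the first from the stop codon where several tie (Ccnd1, Ccnd2 and Cdk6), is shown for each of these genes, to let the sequences be set beside the pulldown values. Capitals mark the motif parts and lower case the spacer.

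Ccnd1, chr7:144932136-144932145, minus strand: AGAGttTTTA
Ccnd2, chr6:127127750-127127757, minus strand: TGAGTCTA
Ccne2, chr4:11203145-11203153, plus strand: TGAGtTTTA
Cdk4, chr10:127067478-127067487, plus strand: TTAGttTCTA
Cdk6, chr5:3523358-3523365, plus strand: AGAGTTTA
Cdk2, chr10:128698626-128698634, minus strand: TTAGtTTTA
Cdkn1b, chr6:134923173-134923180, plus strand: ATAGTTTA
Rb1, chr14:73197116-73197124, minus strand: AGAGaTATA

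The most matches were in the longest 3' UTRs. Cdk6, whose 3' UTR of 10220 nt is the longest of the 10, held 32 matches, and Ccnd2, with 5176 nt, held 19. Matches that overlap were each counted here and in the 3' UTRs of other genes. Per kb, Rb1 was the densest, with 11 matches in 1712 nt (6.43 per kb; 8 sites, or 4.67 per kb, with overlapping matches merged), and 3.20% of the 1047 3' UTRs of similar length (within 10%) held at least as many. Ccnd1 held 11 matches in 2679 nt (4.11 per kb, against 2.57 per kb in 985 3' UTRs of similar length), and 18.8% of those held at least as many. With overlapping matches merged Ccnd1 held 9 sites, or 3.36 per kb. Cdkn1b held 10 matches in 3442 nt (2.91 per kb, against 2.73). The others with a match held 2.56 (Cdk2) to 3.67 per kb (Ccnd2). Ccnd3 (918 nt) and Ccne1 (534 nt) held none, where 77.2% and 57.3% of 3' UTRs of similar length held at least 1. The other form of the motif, ending in AT, was found in Ccnd3 (2 matches) and not in Ccne1, and Ccne1 held 2 matches of the first form when the 3' UTR exons of all its transcripts were merged. A match is a run of letters and not a measured binding site.

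**Figure D1:**
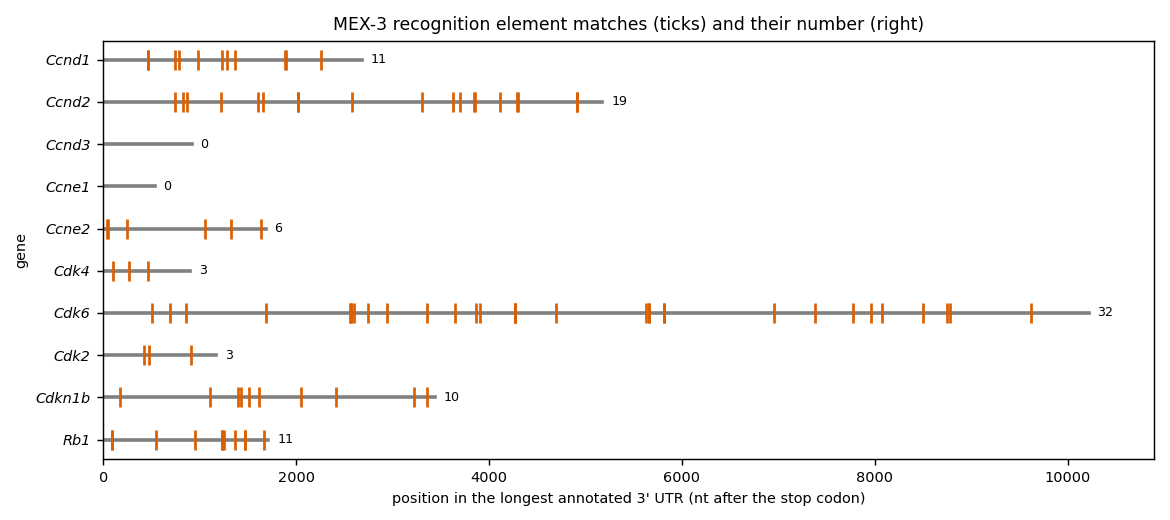
Matches to the MEX-3 recognition element in the longest annotated 3' UTR of the 10 G1 genes. Grey lines run from the stop codon to the end of the 3' UTR (x axis, nt), ticks are matches of the form ending in TA and the number of matches stands at the right; Ccnd3 and Ccne1 have 0, and Cdk6 has 32 spread over 10220 nt.

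Among the D-type cyclins, the partners of CDK4 and CDK6, Ccnd1 and Ccnd2 lay higher in FLAG with both protocols, while Ccnd3 lay close to WT. In the native libraries Ccnd1 (chr7:144929931-144939925, ENSMUSG00000070348) read 9.20, 7.63 and 9.77 in FLAG replicates 1 to 3, against 6.91, 7.73 and 6.83 in WT. FLAG replicates 1 and 3 were far above all WT libraries, and FLAG replicate 2 lay just under WT replicate 2. In the crosslinked libraries Ccnd1 read 7.55 and 7.92 in FLAG and 6.86 and 7.19 in WT, with no overlap. The log2 fold change of Ccnd1 was 0.71 ± 0.19 (SE) crosslinked, 1.71 ± 0.50 native and 1.31 ± 0.38 over all libraries, the largest of the 10 genes in each fit, and 2.48-fold over all libraries. None of these passed the threshold in limma with Benjamini-Hochberg adjustment (adjusted p = 0.53, 0.233 and 0.124).

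Ccnd2 (chr6:127125162-127152193, ENSMUSG00000000184), the D-type cyclin of many neural progenitors, had nearly the same pattern. The native FLAG libraries read 9.41, 7.72 and 9.51 and the native WT libraries 7.62, 7.95 and 7.49, and again FLAG replicate 2 lay within the WT range and the other FLAG replicates above it. The crosslinked libraries read 7.64 and 7.50 in FLAG and 7.17 and 6.95 in WT, without overlap. Its log2 fold change was 0.51 ± 0.12 crosslinked, 1.20 ± 0.43 native and 0.92 ± 0.31 over all libraries (adjusted p = 0.489, 0.266 and 0.157). Ccnd3 (chr17:47505051-47599691, ENSMUSG00000034165), whose 3' UTR holds MRE matches in the form ending in AT alone, read 2.64 and 3.06 against 2.70 and 2.87 crosslinked, and 3.21, 3.45 and 3.14 against 3.20, 3.14 and 2.88 native. FLAG and WT overlapped with both protocols, and over all libraries the log2 fold change was 0.15 with a 95% confidence interval from -0.16 to 0.45.

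**Figure D2:**
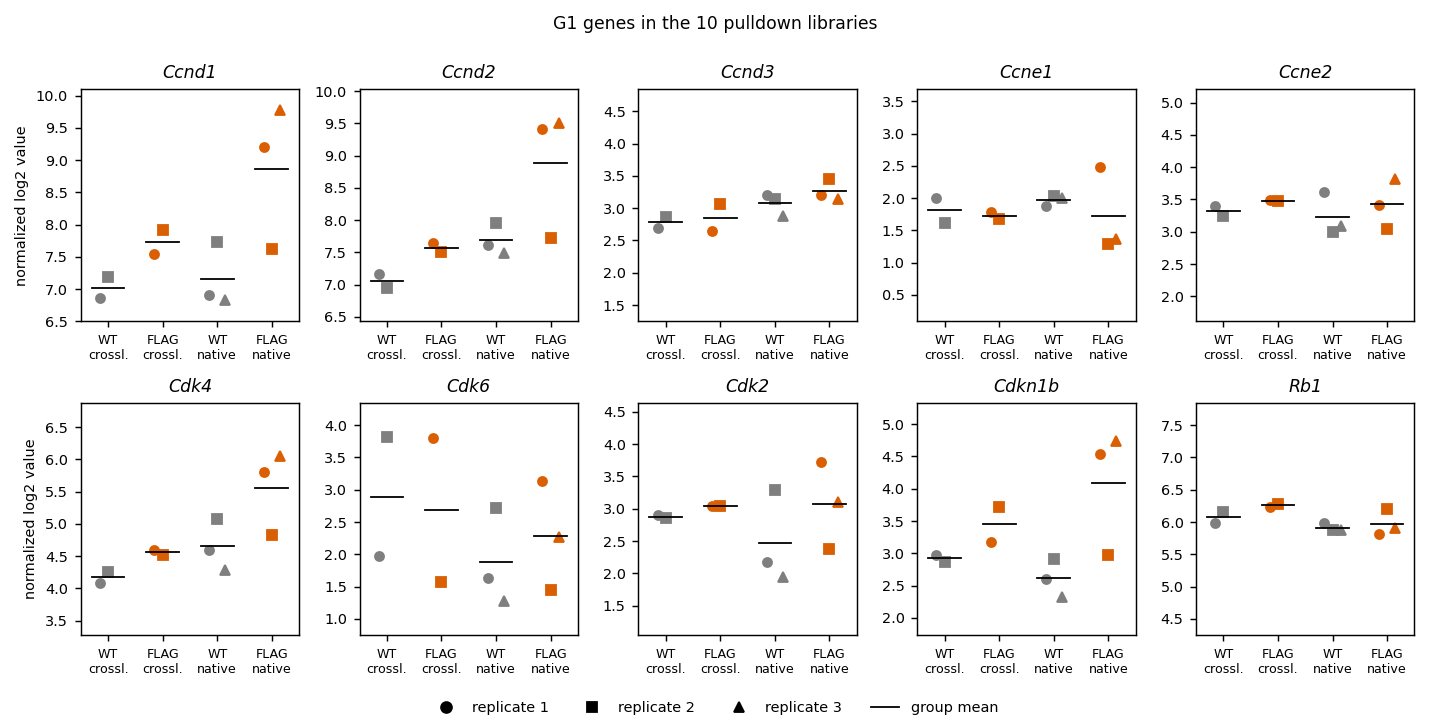
Normalized log2 value (y axis, each panel spanning the same height) of each of the 10 G1 genes in every library, WT in grey and FLAG in orange, with the replicate number as the symbol and the group mean as a line. In Ccnd1, Ccnd2, Cdk4 and Cdkn1b the native FLAG replicates 1 and 3 stand above all native WT libraries, and FLAG replicate 2 (square) stands near or inside the WT range.

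Of the kinases, Cdk4 stood high in the same libraries as Ccnd1 and Ccnd2, whose products it binds. Cdk4 (chr10:127063534-127067920, ENSMUSG00000006728) read 5.80, 4.83 and 6.06 in the native FLAG libraries and 4.60, 5.07 and 4.29 in the native WT libraries, so that FLAG replicate 2 lay between WT replicates. In the crosslinked libraries it read 4.60 and 4.52 in FLAG, above 4.09 and 4.26 in WT. The log2 fold change was 0.38 ± 0.10 crosslinked, 0.91 ± 0.34 native and 0.70 ± 0.24 over all libraries (adjusted p = 0.53, 0.272 and 0.159).

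Cdk2 (chr10:128697939-128705031, ENSMUSG00000025358), the kinase of cyclin E, read 3.05 in both crosslinked FLAG libraries and 2.90 and 2.85 in WT. In the native libraries it read 3.73, 2.37 and 3.10 in FLAG and 2.18, 3.29 and 1.95 in WT, with overlap of the groups, and over all libraries the log2 fold change was 0.42 (95% confidence interval -0.24 to 1.09). Cdk6 (chr5:3341485-3531008, ENSMUSG00000040274), the other partner of D-type cyclins, had the largest SD between replicates of the 10 genes in both crosslinked groups and in native WT, and in native FLAG an SD of 0.85, under that of Ccnd1 (1.11). It read 3.80 and 1.57 in crosslinked FLAG, 1.97 and 3.81 in crosslinked WT, 3.13, 1.44 and 2.27 in native FLAG and 1.64, 2.71 and 1.28 in native WT. Replicates of one group thus differed by more than 2-fold on the linear scale in each group, and the interval over all libraries, -1 to 1.32 around 0.16, is the widest of the 10 genes. The interval of Cdk6 spans 0 in each fit.

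Cdkn1b (chr6:134920401-134925513, ENSMUSG00000003031), which encodes the inhibitor p27, was the single member whose FLAG libraries all lay above the WT libraries with both protocols. It read 3.18 and 3.72 in crosslinked FLAG and 2.97 and 2.87 in WT. In the native libraries it read 4.54, 2.98 and 4.74 in FLAG and 2.60, 2.91 and 2.32 in WT, and the gap between FLAG replicate 2 and the highest WT library was small beside the spread of either group. The log2 fold change was 0.54 ± 0.21 crosslinked, 1.48 ± 0.44 native and 1.10 ± 0.34 over all libraries (2.14-fold, 95% confidence interval 0.36 to 1.84 on the log2 scale). The adjusted p-values were 0.672, 0.233 and 0.136. Groups without overlap, higher in FLAG, were found in both protocols for 4.84% of all genes. Cdkn1b overlaps no other annotated gene, and its MRE matches are therefore shown in full, from the stop codon onwards on the plus strand of chromosome 6.

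chr6:134922241-134922253: TGAGgggacTATA
chr6:134923173-134923180: ATAGTTTA
chr6:134923468-134923480: GGAGttcttTCTA
chr6:134923497-134923505: GTAGcTTTA
chr6:134923578-134923588: AGAGgcaTTTA
chr6:134923689-134923703: GGAGgaataatTTTA
chr6:134924119-134924134: TTAGtgcctgtaTTTA
chr6:134924488-134924497: ATAGttTTTA
chr6:134925291-134925305: AGAGattttttTTTA
chr6:134925426-134925438: TGAGccaagTATA

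The 10 matches of Cdkn1b run from near the stop codon to near the end of the 3' UTR, and their number is close to the median of 9 in the 850 3' UTRs of similar length.

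The E-type cyclins, which activate CDK2, lay close to WT and did not pass the test in any fit. Ccne1 (chr7:38097984-38107534, ENSMUSG00000002068) read 1.78 and 1.67 in crosslinked FLAG, 2.01 and 1.62 in crosslinked WT, 2.49, 1.29 and 1.37 in native FLAG and 1.88, 2.03 and 2.01 in native WT. It was the single member with a negative value over all libraries, -0.19 with a 95% confidence interval from -0.71 to 0.33, and FLAG native replicates 2 and 3 lay under the WT libraries while replicate 1 lay above them. Ccne2 (chr4:11191351-11204779, ENSMUSG00000028212) read 3.49 and 3.47 against 3.40 and 3.24 crosslinked, and 3.41, 3.04 and 3.82 against 3.61, 3.00 and 3.09 native. Its groups overlapped native and not crosslinked, and over all libraries Ccne2 had a log2 fold change of 0.18 (-0.20 to 0.56).

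Rb1 (chr14:73183673-73325822, ENSMUSG00000022105), the substrate at which both kinase steps meet, had the narrowest range of the 10 over all libraries (5.81 to 6.28). It read 6.24 and 6.28 in crosslinked FLAG, 5.98 and 6.16 in crosslinked WT, 5.81, 6.20 and 5.91 in native FLAG and 5.98, 5.87 and 5.88 in native WT. Over all libraries its log2 fold change was 0.11 ± 0.10, with an interval from -0.11 to 0.34 that lies within the 0.58 threshold. In Rb1, FLAG native replicates 1 and 3 did not stand above WT as they did in Ccnd1, Ccnd2, Cdk4 and Cdkn1b, and its density of MRE matches is the highest of the members.

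Read as a group, 0 of the 10 members were called in any of the 3 FLAG to WT fits by limma with Benjamini-Hochberg adjustment. Among all genes, 0% were called higher in the crosslinked fit, 0% in the native fit and 0.264% over all libraries, and 0%, 0.107% and 0.233% were called lower. At an unadjusted p under 0.05 and a log2 fold change above 0.58, 1 member (Ccnd1) was higher crosslinked, beside 2.78% of all genes. By the same rule Ccnd1, Ccnd2, Cdk4 and Cdkn1b were higher native, 4 members beside 7.77% of all genes, and the same 4 over all libraries, beside 7.24%. No member was lower by this rule, as 0.987%, 7.06% and 5.28% of all genes were in the crosslinked, native and all-library fits. The median log2 fold change of the members was 0.18 crosslinked, 0.50 native and 0.30 over all libraries, where the median of all genes was -0.02, -0.04 and -0.03. FLAG lay wholly above WT in 7 members crosslinked (all except Ccnd3, Ccne1 and Cdk6), where 19.1% of all genes did so, and in 1 member native (Cdkn1b), where 8.62% did.

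**Figure D3:**
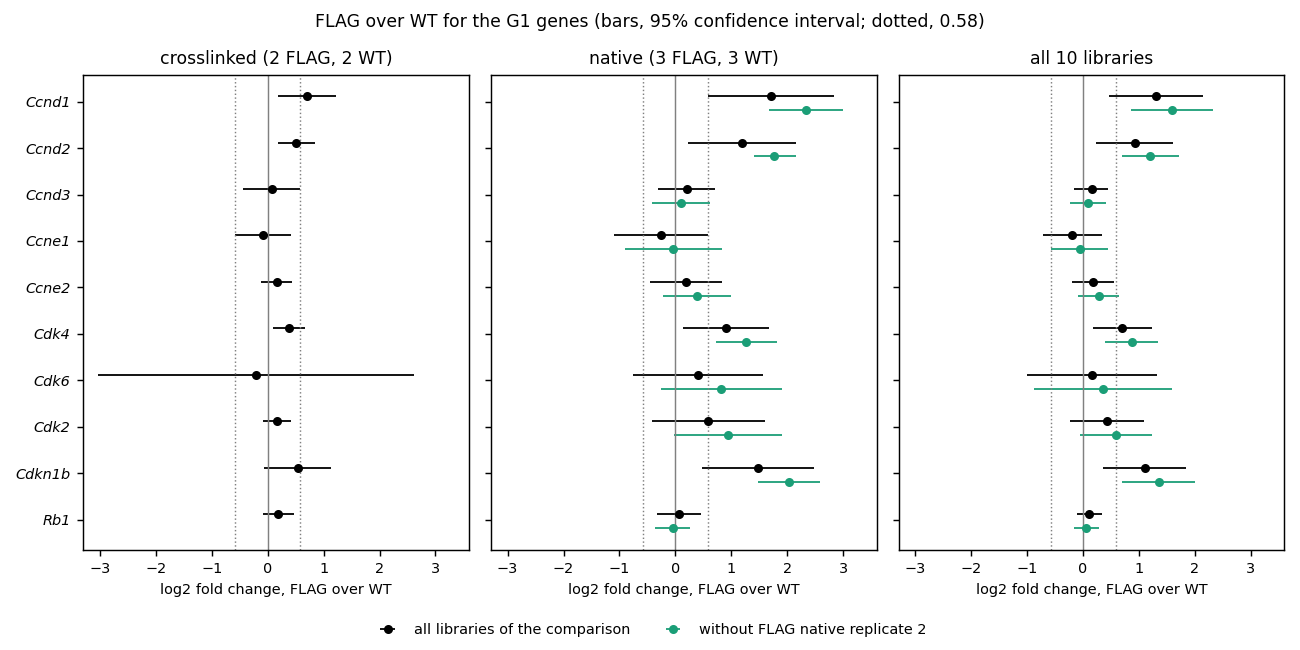
Log2 fold change of FLAG over WT (x axis) with its 95% confidence interval for the 10 G1 genes in the crosslinked, native and all-library fits, in black with all libraries and in green without FLAG native replicate 2. Dotted lines mark 0.58; without that library the native values of Ccnd1, Ccnd2, Cdk4 and Cdkn1b range from 1.27 to 2.33, with intervals that lie above 0.58.

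Which of these 4 genes were called depended on how the native FLAG libraries were used. Without FLAG native replicate 2, the native log2 fold change was 2.33 for Ccnd1 (adjusted p = 0.00468), 2.03 for Cdkn1b (0.00467), 1.77 for Ccnd2 (0.00313) and 1.27 for Cdk4 (0.0138), and all 4 were called higher. In that fit 9.12% of all genes were called higher and 10.8% lower. Over all libraries without that replicate the same 4 were called, with log2 fold changes of 1.59, 1.35, 1.20 and 0.87 (adjusted p = 0.0328, 0.036, 0.0266 and 0.0495), and 3.25% of all genes were called higher and 1.17% lower. With crosslinked and native libraries of one genotype and number taken as a random block, that fit called Ccnd1, Ccnd2 and Cdkn1b and not Cdk4 (adjusted p = 0.0553). Of all 15899 genes, 431 were called higher and 146 lower with this block. With limma's array weights, which gave FLAG native replicate 2 the lowest weight of the native libraries (0.292), the same 4 were called native, beside 10.4% of all genes higher and 12.1% lower. The weights of the all-library fit were estimated separately and ran the other way, with FLAG native replicates 1 and 3 lowest (0.124 and 0.159) and FLAG native replicate 2 at 1.27. They called Ccnd1 (0.99, adjusted p = 0.000828) and Cdkn1b (0.71, adjusted p = 0.00313), 2 members, beside 6.95% of all genes higher and 6.06% lower. When instead FLAG native replicates 1 and 3, the libraries with most tied genes, were left out together, the values over the remaining libraries were 0.61 for Ccnd1, 0.46 for Cdkn1b, 0.31 for Ccnd2 and 0.30 for Cdk4, and 0 members were called (adjusted p = 0.379 for Ccnd1 and 0.404 for Cdkn1b). The value of each of the 4 genes thus stayed above 0 with either choice, and was over 2 times larger with the first than with the second. Whether depth has a part in this was not tested.

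**Figure D4:**
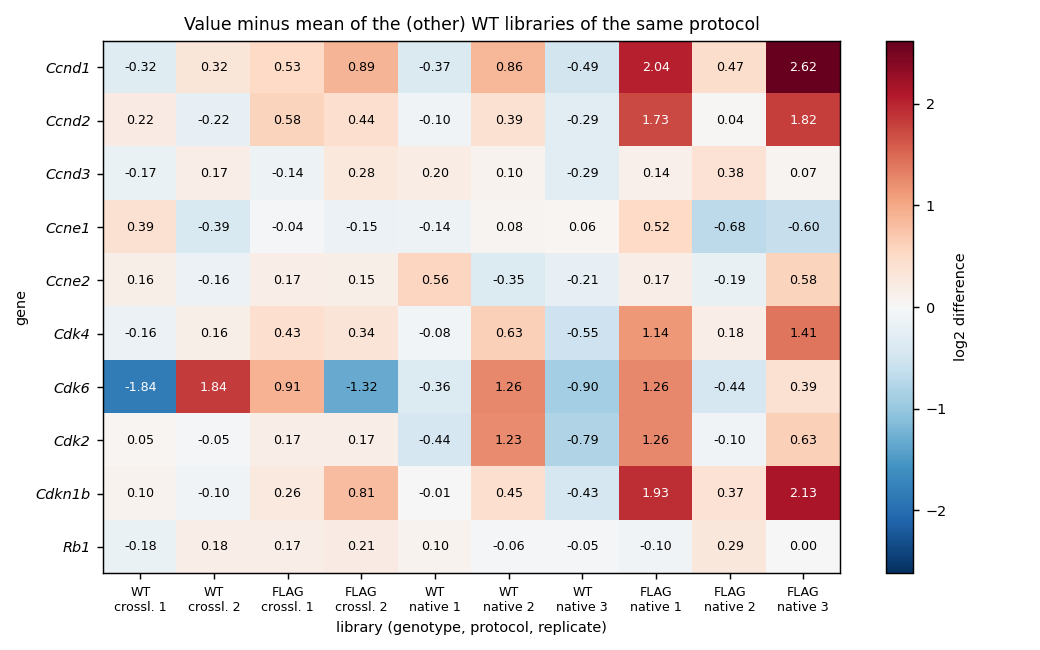
Log2 value of each G1 gene in each library minus the mean of the WT libraries of its protocol (for a WT library, the mean of the other WT libraries), red where higher and blue where lower. The red cells of Ccnd1, Ccnd2, Cdk4 and Cdkn1b in FLAG native replicates 1 and 3 reach 1.14 to 2.62, WT native replicate 2 is also above the other WT libraries in these genes, and Rb1 stays between -0.18 and 0.29.

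WT native replicate 2 was the WT library nearest to the FLAG pattern, with a median over the 10 genes of 0.42 above the other native WT libraries and 8 of the 10 above them. It read 0.86 higher for Ccnd1, 0.45 for Cdkn1b, 0.39 for Ccnd2 and 0.63 for Cdk4. Leaving it out did not bring any member past the threshold.

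The 4 genes were singled out with FLAG native replicates 1 and 3 in view, which fixes much of their likeness over the 10 libraries. Over the 10 libraries, Pearson's r was 0.97 between Ccnd2 and Cdk4, 0.96 between Ccnd1 and Cdkn1b, 0.94 between Ccnd1 and Cdk4 and 0.93 between Ccnd1 and Ccnd2. Without FLAG native replicates 1 and 3 these became 0.89, 0.78, 0.67 and 0.49 over 8 libraries, and the values for Cdkn1b fell from 0.85 to 0.03 with Ccnd2 and from 0.83 to 0.14 with Cdk4. These correlations are descriptions over libraries that share genotype groups, protocols and normalization. Among all genes, those most like Ccnd1 over the 10 libraries were Gm10964 (r = 0.996), Ankrd40 (0.993) and Gm26735 (0.992), and those most like Cdkn1b were Gm45411 (0.992), Tmem30a (0.991) and Socs4 (0.983). All 6 are on the list of enriched genes that the study chose with these libraries, as are 2 of the members, Ccnd1 and Cdkn1b, and so the likeness is no independent evidence of enrichment. Of all 15899 genes in the matrix, 235 (1.48%) are on it. The study made the list with DESeq2 on read counts and kept the genes enriched with both protocols. The main limma fits on the deposited log2 values called neither Ccnd1 nor Cdkn1b, so the list and these fits rest on unlike tests.

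The protocols were compared directly. The native effect minus the crosslinked effect was 1.00 ± 0.74 for Ccnd1, 0.94 ± 0.65 for Cdkn1b, 0.68 ± 0.63 for Ccnd2 and 0.52 ± 0.48 for Cdk4, with 95% confidence intervals that reach from -0.67 to 2.67 for Ccnd1 and from -0.52 to 2.40 for Cdkn1b. No member passed the test of this difference, and among all genes 0% were called in either direction. Without the tag, crosslinked WT minus native WT was 1.01 ± 0.78 for Cdk6, -0.63 ± 0.44 for Ccnd2 and -0.48 ± 0.34 for Cdk4, and between -0.29 (Ccnd3) and 0.40 (Cdk2) for the other members. None was called (smallest adjusted p of the members 0.843), where 0.044% of all genes were higher and 0.289% lower with crosslinking.

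The nonspecific background itself differed widely among the members. Per kb of transcript, the mean log2 level in the 5 WT libraries was highest for Ccnd1 (5.20 ± 0.38, SD) and Ccnd2 (4.77 ± 0.39), followed by Rb1 (3.75 ± 0.12), Cdk4 (3.42 ± 0.39), Ccne2 (1.68 ± 0.24), Ccnd3 (1.01 ± 0.21), Cdk2 (0.93 ± 0.55), Ccne1 (0.91 ± 0.17), Cdkn1b (0.55 ± 0.27) and Cdk6 (-1.25 ± 1.01). Neighbours in this order overlapped in range except Ccnd2 and Rb1, Cdk4 and Ccne2, and Ccne2 and Ccnd3. The D-type cyclins were not alike in level, since the ranges of Ccnd3 and Ccnd1 lay far apart.

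In 3 of the members over 10% of the 75-nt windows of the longest transcript are shared with a gene on the opposite strand. Without strand in the counting such reads cannot be told apart. The library kit keeps strand, and the setting used in counting is not given in the sources used here. Ccnd1 shares 1100 nt of exon, all in its 3' UTR, with Oraov1, a stretch that holds 4 of its 11 MRE matches. Of all 75-nt windows of the Ccnd1 transcript, 26.05% were also found in another gene on either strand. Oraov1 read 8.11, 6.41 and 8.76 in native FLAG and 5.61, 6.34 and 5.57 in native WT. In the crosslinked libraries it read 6.09 and 6.41 against 5.16 and 5.31, so within each protocol its FLAG libraries all lay above WT. Over all libraries Oraov1 had a log2 fold change of 1.56 ± 0.39 (adjusted p = 0.096), above that of Ccnd1. Like Ccnd1, Oraov1 is on the list of enriched genes that the study chose with these libraries.

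Cdk4 shares 641 nt with Tspan31 (28.65% of its windows), which read 3.51, 3.14 and 3.98 in native FLAG and 3.10, 3.30 and 2.82 in native WT and had a log2 fold change over all libraries of 0.36 ± 0.18 (adjusted p = 0.261). Ccne2 shares 609 nt with Ints8 (15.86% of its windows), at -0.01 ± 0.10. The value of Ccnd1 is thus uncertain to the extent that its reads and those of Oraov1 were mixed, which was not tested. Cdkn1b, Cdk2 and Ccne1 have no window shared with another gene, and in the other members the shared part was at most 4.8% of windows (Ccnd2).

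The rest of the G1/S network was read from a list of 38 genes in 6 role groups, of which 36 were measured (Cdkn1c and Mycn were not in the matrix). None was called in limma with Benjamini-Hochberg adjustment, and at an unadjusted p under 0.05 with a log2 fold change beyond 0.58, 4 were higher and 1 lower over all libraries. Their median log2 fold change was -0.13 and 14 were above 0, against 0.30 and 9 of 10 for the core genes, while 46.8% of all genes were above 0. The inhibitors held the widest range of the role groups. Cdkn2d, an INK4 inhibitor of CDK4 and CDK6, had 1.47 ± 0.44 (adjusted p = 0.129), which rests on very low values, at -2.08 and -1.68 in crosslinked WT and -1.16 to 0.73 in native WT on the log2 scale. Cdkn1a, which encodes p21, the relative of p27, had 0.98 ± 0.23 (0.0891), and Cdkn2b, another INK4 inhibitor, had -0.64 ± 0.16 (0.0931). Cdkn1a is also on the study's own list.

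The 12 genes of the Rb family and of E2F and DP ran from -0.33 ± 0.15 (E2f7, a repressive E2F) to 0.39 ± 0.24 (E2f4, which pairs with pocket proteins), with a median of -0.07. The 5 genes of kinase activation ran from -0.30 ± 0.16 (Cdc25a, the phosphatase that activates CDK2) to 0.14 ± 0.10 (Ccnh, the cyclin of the CDK-activating kinase). The 12 genes of the ubiquitin ligases that degrade G1 cyclins and p27 had a median of -0.23, from -0.56 ± 0.18 (Fbxo31, an F-box protein) to 0.67 ± 0.24 (Skp1a, a core subunit of SCF ligases). Myc, the mitogen-responsive factor upstream of Ccnd2, had 0.57 ± 0.22, and Ccna2, the cyclin of S phase, 0.72 ± 0.27 (adjusted p = 0.191 and 0.181).

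**Figure D5:**
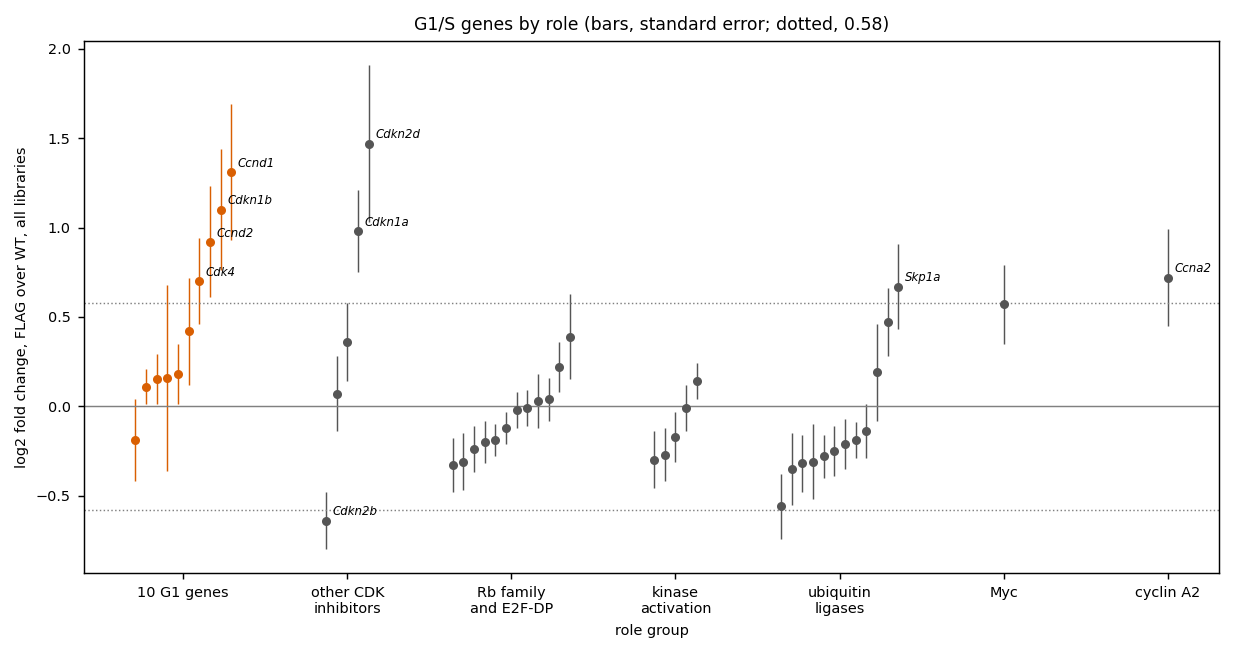
Log2 fold change of FLAG over WT in all libraries (y axis, bars are the standard error) for the 10 G1 genes in orange and 36 other measured genes of the G1/S network in grey, ordered within each role group. Dotted lines mark 0.58 in either direction; Ccnd1, Cdkn1b, Ccnd2 and Cdk4 lie above the upper line together with Cdkn2d, Cdkn1a, Skp1a and Ccna2, while Rb-family and E2F-DP genes lie between -0.33 and 0.39.

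Proliferation genes and cell type markers were read beside these values. The 6 cycling markers had a median log2 fold change of 0.23 over all libraries and none was called (Pcna 0.67, Ccnb1 0.53, Mcm2 0.25, Top2a 0.21, Mki67 0.19 and Cdk1 -0.11). Their summed linear level spanned 171 to 422 in native FLAG and 189 to 260 in native WT, and 225 to 252 against 188 to 250 crosslinked, so the groups overlapped. Of the 10 neural stem and progenitor markers, 9 were measured (Gfap was not in the matrix), and their summed linear level was 2290 to 2920 in native FLAG, 2600 to 2780 in native WT, 2070 to 2160 in crosslinked FLAG and 2020 to 2320 in crosslinked WT.

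The defining neuroblast genes Dcx, Tubb3, Dlx1 and Dlx2 were not in the matrix, and of the 5 on that list Cd24a alone was measured (1.24). The mature neuron markers (3 of 3 measured) summed to 12 to 17 in native FLAG and 28.7 to 39.7 in native WT, and to 11.7 to 21.2 against 29.5 to 30.0 crosslinked. Rbfox3, a mature neuron marker, was called lower in FLAG over all libraries (-1.31, adjusted p = 0.0127). Of the lists for oligodendrocytes, microglia, endothelial and ependymal cells, 1 of 4, 3 of 5, 1 of 3 and 1 of 2 genes were measured and none was called. The part of these markers in the values of the G1 genes was not tested.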

How the data were processed

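RIP-seq values of 10 libraries were used. Per the submitters' processing notes and the methods, the authors trimmed reads (cutadapt, Trimmomatic), mapped them to GRCm38 (HISAT2), counted them per gene (featureCounts) and normalized the counts, for which the authors name DESeq2 in the methods and limma in the notes. The deposited matrix holds normalized log2 values of 15899 genes with nearly the same distribution in every library (linear sums 949427 to 949437), so whole reads could not be recovered, depth is unknown and no count model was fitted. FLAG and WT were compared in limma 3.58.1 (R 4.3.3; lmFit, eBayes with trend, Benjamini-Hochberg over all genes) within each protocol, over all libraries with protocol as covariate, and in a 4-group fit for differences between protocols. Steps were tested on simulated data. Sequences and 3' UTRs came from GENCODE M21 on GRCm38, where 15864 genes were found (pysam 0.24.0, Python 3.11.15). Levels per kb used the longest transcript of each gene.

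The members, lists and tests were chosen with earlier results of these data known. Named genes were all members, the pathway genes with the highest and lowest value over all libraries in each role group, and the 3 genes most like Ccnd1 and Cdkn1b. Cdkn1a, Mex3a, markers and overlapping genes lie outside this rule and were named with their values known. FLAG and WT libraries of the same replicate number and protocol did not deviate together, and they were not treated as pairs in the main fits. Crosslinked and native libraries of one genotype and number deviated together in all 4 pairs (r = 0.15 to 0.39; the crosslinked replicates mirror each other, being 2 a group), which comes from the data and not the labels, and a random block on them was added after seeing the data. Alternatives were pseudocounts, a minimum level, quantile normalization, removal of trends on GC and length, array weights, a replicate block and each library left out.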

Additional observations from a re-analysis of the deposited data

How the results depend on the processing

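The count of called members was 0 in every FLAG to WT fit. It was also 0 under each alternative for the crosslinked libraries, the protocol difference and the WT protocols. For the crosslinked libraries this says nothing of stability, since at that size the same steps called none of the genes changed in simulated data. Native and over all libraries the count changed. With array weights, 4 members were called native, where FLAG native replicate 2 weighed least, and 2 (Ccnd1 and Cdkn1b) over all libraries, where FLAG native replicates 1 and 3 did, and with each library left out in turn it ranged from 0 to 4 in both fits, 4 being reached without FLAG native replicate 2. The log2 fold changes of Ccnd1, Ccnd2, Cdk4 and Cdkn1b stayed above 0 in all settings of the 3 fits, and over all libraries Ccnd1 ranged from 0.61 to 1.61, Ccnd2 from 0.31 to 1.21, Cdk4 from 0.30 to 0.88 and Cdkn1b from 0.46 to 1.37, with adjusted p from 0.000828 to 0.379, 0.0266 to 0.488, 0.00649 to 0.588 and 0.00313 to 0.404. The lowest values came without FLAG native replicates 1 and 3, an alternative chosen after seeing the data.

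Members near 0 changed sign, and the cause was not tested. With array weights Rb1 native was -0.01 and Cdk6 over all libraries -0.25, and Cdk6 was -0.30 without FLAG native replicates 1 and 3. With each library left out, crosslinked Ccnd3 ran from -0.14 to 0.28, Cdk6 from -1.32 to 0.91 and Ccne1 from -0.29 to 0.10. Native Cdk6 ran from -0.02 to 0.82, Rb1 from -0.05 to 0.15 and Ccne2 from -0.01 to 0.38, and Cdk6 over all libraries from -0.13 to 0.56. The protocol difference ran from -0.08 to 0.34 for Ccnd3, -0.51 to 1.72 for Cdk6, -0.55 to 0.05 for Ccne1 and -0.16 to 0.22 for Ccne2. WT crosslinked minus native ran from -0.29 to 0.16 for Ccnd1, -0.35 to 0.04 for Ccne1 and -0.03 to 0.28 for Ccne2, and was 0.05 (Ccnd1) and -0.04 (Ccne2) with array weights and -0.01 (Ccne2) with the GC and length trend removed.

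Same-numbered FLAG and WT libraries correlated at -0.27 in both crosslinked pairs, which mirror each other, and at -0.15, -0.43 and -0.17 native. Pairs of unlike number were at 0.27 crosslinked and from -0.31 to 0.40 native. With 2 or 3 libraries a group these values depend on each other, so they cannot show whether FLAG and WT were paired. A batch shared under unlike numbers was not tested. With the replicate block 0 members were called in any fit, genes called over all libraries went from 42 higher and 37 lower to 14 and 20, and WT Ccnd1 crosslinked minus native was 0.01. The crossed pairing, added after seeing the data, called 0 members. The random block on crosslinked and native libraries of one genotype and number, also added then, called 0 members over all libraries (7 of all genes higher and 8 lower). Without FLAG native replicate 2 the random block called 3 members, beside 431 of all genes higher and 146 lower. It put Ccne2 at -0.01 in the protocol difference and changed no other member's sign. Of the members, 8 held an MRE match, and 9 did so with the form ending in AT (Ccnd3 added) or with merged 3' UTR exons (Ccne1 added). Limits are the 2 or 3 libraries a group, the unknown depth and input RNA, which was not analysed here.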
